A study of Drosophila melanogaster with 2 samples.

Results

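Weak coding regions are the regions of the pooled Atf-2 ChIP list that overlapped no peak of the reproducible list and whose summit lay in an annotated coding sequence (CDS) of a protein-coding gene. They number 6154 of the 30000 regions in the pooled list. They were chosen by annotation and by the lack of overlap with the reproducible list, which is thresholded on the irreproducible discovery rate (IDR) and holds 3265 peaks. Of the pooled regions, 4022 overlapped an IDR peak, 6154 were weak and coding, and 19824 were weak with the summit elsewhere. The weak regions elsewhere comprised 10261 in introns, 6169 between genes, 1900 in 5′ untranslated regions (UTRs), 753 in 3′ UTRs and 741 in exons of noncoding transcripts.

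All material came from a single group. Whole Drosophila melanogaster embryos of mixed sex, aged 0 to 24 h, carried a transgene for Atf-2 with eGFP fused to its C-terminus, and chromatin was sonicated, kept at fragments of 200 to 800 bp and precipitated with an antibody to GFP. Biological replicates 2 and 3 were analysed here, each by a list of 30000 regions, beside the list called on both together. No untagged or other reference group enters, so no comparison between conditions was possible, and the labels give neither the promoter of the transgene nor the state of the embryos' own Atf-2 gene. The embryos span all embryonic stages and all tissues, so a region can stem from few cells. Read numbers behind the regions are unknown, and the pooled list contains background on purpose, so presence in it is not a call of binding.

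Atf-2 is a basic leucine zipper protein, and the stress-activated kinase p38 phosphorylates it. Proteins of this family bind as dimers to the cyclic AMP response element (CRE) and related sites, most often in promoters and enhancers. A coding exon is transcribed and translated, is richer in G and C than the introns and spacers of the fly genome, and is not where most enhancers lie. Lists made for IDR analysis keep many low regions so that the ranks of the replicates can be compared, and a weak region in such a list is a local excess of fragments of any origin.

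The sequences around 8 weak coding regions show their composition. Each run is 101 bases centred on the summit, on the coding strand from 5′ to 3′, read from the Release 6 (dm6) assembly, and lies wholly in coding sequence; the last is a weak region in an intron with a pooled signal of 84.5 and no exon in its window, on the + strand, for contrast. Capitals mark runs of 5 or more G or C in a row.
Snap24, chr3R:9762622-9762722 (- strand): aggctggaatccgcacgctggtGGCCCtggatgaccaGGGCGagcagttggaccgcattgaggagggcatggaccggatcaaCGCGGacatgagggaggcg
scrib, chr3R:26567057-26567157 (+ strand): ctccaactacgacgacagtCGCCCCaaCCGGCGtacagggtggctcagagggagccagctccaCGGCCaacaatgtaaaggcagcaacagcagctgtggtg
gukh, chr3R:19008609-19008709 (+ strand): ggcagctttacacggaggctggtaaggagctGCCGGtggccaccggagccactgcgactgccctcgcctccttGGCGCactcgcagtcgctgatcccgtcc
osa, chr3R:17695120-17695220 (- strand): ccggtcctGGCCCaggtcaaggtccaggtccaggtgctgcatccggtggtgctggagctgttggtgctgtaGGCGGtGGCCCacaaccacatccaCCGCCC
pum, chr3R:9072763-9072863 (- strand): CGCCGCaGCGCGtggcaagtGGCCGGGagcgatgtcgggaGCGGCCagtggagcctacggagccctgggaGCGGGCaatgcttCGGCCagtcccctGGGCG
mura, chr3R:9546983-9547083 (- strand): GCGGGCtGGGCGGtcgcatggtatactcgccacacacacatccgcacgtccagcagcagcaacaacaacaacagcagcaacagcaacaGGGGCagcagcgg
btsz, chr3R:14817196-14817296 (- strand): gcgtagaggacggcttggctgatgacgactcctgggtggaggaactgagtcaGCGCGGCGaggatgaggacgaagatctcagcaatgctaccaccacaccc
RhoGEF3, chr3L:297907-298007 (+ strand): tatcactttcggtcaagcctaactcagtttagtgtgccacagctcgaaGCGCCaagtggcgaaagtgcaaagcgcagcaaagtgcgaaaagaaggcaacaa
intron, chr3R:13984433-13984533 (+ strand): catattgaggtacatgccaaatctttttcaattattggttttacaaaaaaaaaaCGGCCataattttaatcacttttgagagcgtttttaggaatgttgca

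Snap24 and scrib are among the strongest weak coding regions, gukh, osa, pum, mura and btsz are genes with several of them, and the RhoGEF3 window had the lowest GC content among the qualifying windows of such genes. The pum window was 74.3% G or C over its 101 bases and held 7 capital runs, that of osa was 67.3% with 4, and that of Snap24 was 65.3% with 3. The mura window combined GC runs with repeats of the triplets CAG and CAA. The btsz window was 60.4% G or C, the RhoGEF3 window was 49.5%, and the intronic window was 29.7%. The pum and intronic windows are not typical of their groups. The pum window had the highest GC content among the qualifying windows of genes with most members. The intronic window was chosen by its strength and was 27.9% G or C over 201 bp. The median over 201 bp was 41.3% in weak intronic regions and 56.2% in the members. Over all members, 11.4% of the 101-base windows had no such run. The share without a run was 42.7% in weak regions elsewhere, 62.2% in IDR peaks and 22.5% over windows centred on every coding base.

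Weak coding regions made up 23.7% of the weak pooled regions (exact 95% interval 23.2% to 24.2%), while coding sequence covers 17.1% of the assembled chromosome arms 2L, 2R, 3L, 3R, 4 and X. Of the IDR peaks, 17 of 3265 had a coding summit, which is 0.521% (0.304% to 0.832%). All intervals given here cover counting error only. Per megabase (Mb) there were 270 weak regions in coding sequence and 179 elsewhere. Summed over all GC classes, that difference went with GC content. If the weak regions of each GC class had the coding share of its bases, 6209 (23.9%) would be coding. The ratio of observed to expected was 0.991. Within classes the rates were not equal, and the total holds differences in opposite directions. At 35% to 40% GC there were 107 weak regions per Mb of coding sequence and 187 per Mb elsewhere. At 60% to 65% there were 582 in coding sequence and 263 elsewhere. IDR peaks were distributed the other way, with 0.745 per Mb of coding sequence and 29.2 per Mb of other sequence.

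The signal, which is the authors' own value for each region and has no stated unit, was low in the members by construction. Its median was 30.4 (quartiles 26.3 and 37.0, range 23.3 to 83.4), against 32.9 (27.3 and 44.0) in weak regions elsewhere and 132 in IDR peaks. At the upper limit, the strongest member had a signal of 83.4 at rank 3338, and the weakest IDR peak had 84.6 at rank 3265. A deposited q-value at or under 0.05 accompanied 272 members, or 4.42%, against 16.6% of weak regions elsewhere. The same share over all pooled regions was 23.7%, which includes every IDR peak. Coding summits grew more frequent down the list: they were 56 of the weak regions at ranks 3266 to 5000 (3.48%), and 1403 of those at ranks 25001 to 30000 (28.4%).

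The strongest member lay in sqd, which encodes the RNA-binding protein Squid. Its pooled signal was 83.4, with 35.5 in replicate 2 and 48.4 in replicate 3. The summit, at 3R:13645916 of dm6, was in coding exon 1 of 7, at codon 2, 113 bp from the nearest annotated transcription start site (TSS), and the base also belongs to a 5′ UTR of another transcript. Glut4EF, named after a human enhancer-binding factor, followed with 83.1 in the pool, 51.1 in replicate 2 and 23.3 in replicate 3. Its summit, at 3R:9876023, was farther from a TSS, at 1342 bp. The region in pros, the gene of the homeodomain protein Prospero that acts in neural precursors, had 80.1 in the pool, 46.4 in replicate 2 and 29.8 in replicate 3. A TSS lay 3 bp from its summit at 3R:11372791, which is a 5′ UTR base in another transcript.

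The region in l(3)mbn was unlike its neighbours in rank: the summit, at 3L:6124826, was in a 63 bp exon, number 5 of 6, and the window was 38.3% GC. Its signal was 79.8 in the pool, 59.7 in replicate 2 and 19.7 in replicate 3. Adss encodes adenylosuccinate synthetase, an enzyme of AMP synthesis, and its region had 79.5 in the pool, 45.8 in replicate 2 and 39.0 in replicate 3. That region, with its summit at 3R:20830400, was also among the 8 members with the lowest sum of ranks in both replicates. Snap24 encodes a SNARE of the SNAP-25 family, and its single coding exon held a region with 75.7 in the pool, 42.0 in replicate 2 and 36.9 in replicate 3. The summit lay at codon 60, 478 bp from a TSS.

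In mib1, which encodes a ubiquitin ligase for Notch ligands, the signal was 74.9 in the pool, 54.4 in replicate 2 and 20.2 in replicate 3, at codon 18 of the first coding exon (3L:16011597). In scrib, which encodes a scaffold of apicobasal polarity, it was 73.7 in the pool, 53.8 in replicate 2 and 20.4 in replicate 3. The scrib summit was in coding exon 6 of 25, 1506 bp from a TSS. Others of the 12 strongest were in Mipp2 (79.7 in the pool), CG31650 (76.7) and CG33099 (73.0), all in the first coding exon. Of the 12, 10 had the summit in the first or only coding exon, 8 lay within 500 bp of a TSS, and 11 had a higher signal in replicate 2 than in replicate 3. The exception to the last count was sqd. No replicate region behind these 12 overlapped a stronger pooled region.

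**Figure D1:**
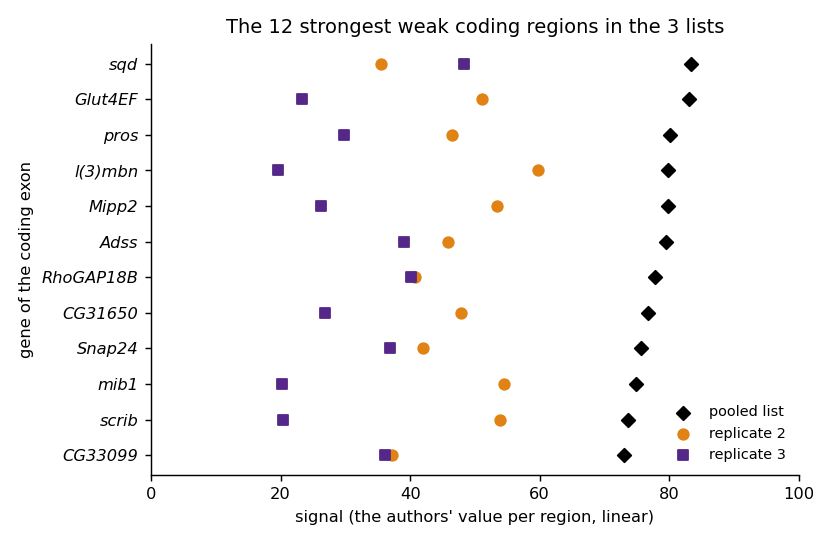
Signal of the 12 strongest weak coding regions in the pooled list (diamonds), in replicate 2 (circles) and in replicate 3 (squares), on a linear axis in the authors' own units, 1 gene a line. The pooled values sit between 73.0 and 83.4, above both replicates in every gene, and replicate 3 lies below replicate 2 in all but sqd.

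Presence in a replicate was counted as an overlap of at least 1 bp with any region of that replicate's list. Replicate 2 had a region at 4335 members (70.4%, 69.3% to 71.6%), against 78.4% of weak regions elsewhere and 79.7% of all pooled regions. Replicate 3 had a region at 4000 members (65.0%, 63.8% to 66.2%), against 67.7% elsewhere and 71.4% of all pooled regions. Both replicates had a region at 2551 members (41.5%), against 50.9% elsewhere and 55.5% of all pooled regions. The members were thus below the background of the whole list in each count. Replicate 2 alone had 1784 members (29.0%), against 27.5% of weak regions elsewhere and 24.2% of all pooled regions. Replicate 3 alone had 1449 (23.5%), against 16.8% elsewhere and 16.0% of all pooled regions. A region of neither was overlapped by 370 members (6.01%), against 4.77% elsewhere and 4.38% of all pooled regions, so the counts in a single replicate or in neither were above those of the whole list. A stricter count asked for replicate summits within 100 bp of the pooled summit in both replicates. It was met by 1334 members (21.7%), against 29.2% of weak regions elsewhere.

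Strength and presence went together. The pooled list was called on these same replicates, so the presence of its strong regions in them is not independent replication. At ranks 3266 to 5000, 96.4% of the 56 members were in both replicates. At ranks 10001 to 15000 the share was 63.1%, and at ranks 25001 to 30000 it was 15.4%. Weak regions elsewhere fell likewise, from 97.4% at ranks 3266 to 5000 to 17.8% at ranks 25001 to 30000. With weak regions elsewhere weighted to the rank groups of the members, their shares became 73.7% in replicate 2, 62.5% in replicate 3 and 42.2% in both. The members, at 70.4%, 65.0% and 41.5%, were then lower in replicate 2 and higher in replicate 3. Part of the overlap is not independent of neighbours: among the members with a replicate region, that region also overlapped a stronger pooled region for 12.5% in replicate 2 and 12.4% in replicate 3. Without these, 2113 members (34.3%) had a region of their own in both.

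**Figure D2:**
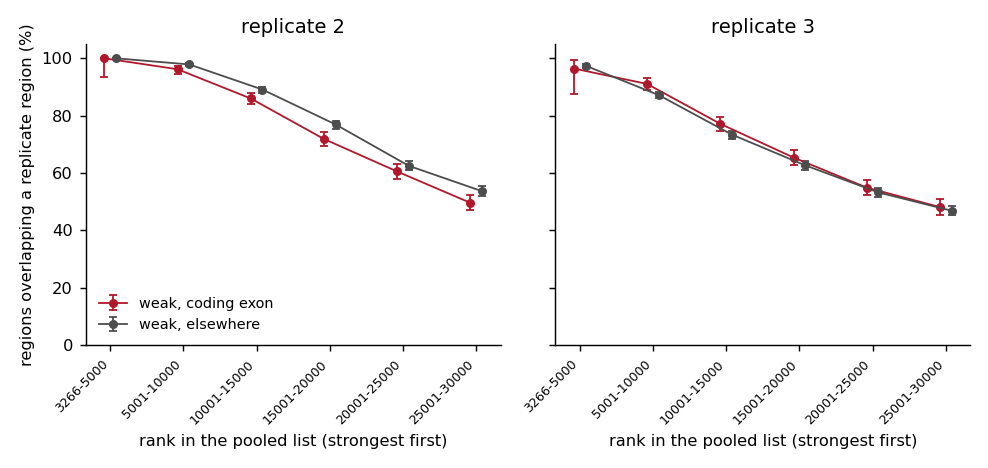
Share of regions (%) that overlapped a region of replicate 2 (left) or replicate 3 (right) by at least 1 bp, by rank in the pooled list, for weak coding regions (red) and weak regions elsewhere (grey), with exact 95% intervals. In replicate 2 the members' share ran from 100% at ranks 3266-5000 to 49.6% at ranks 25001-30000, and in replicate 3 from 96.4% to 48.1%.

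Where both replicates had a region, its signal had a median of 22.2 in replicate 2 and 16.9 in replicate 3. The ratio of replicate 2 to replicate 3 had a median of 1.31 over the 2551 members (SD 0.49 in log2 units). Across these members the signals of both replicates had a Spearman correlation of 0.166, against 0.317 over the 10085 weak regions elsewhere that both lists held. These points share their libraries, a rank range fixed by the pooled list and, for some neighbours, the replicate region itself, so the coefficients are descriptions. Of these 2551 members, 7 had a replicate 2 region that ranked within the top 3265 of its list, 61 had such a replicate 3 region and 4 had both. Of the 10085 weak regions elsewhere, 276 had such a region in replicate 2, 652 in replicate 3 and 12 in both, so the members were the less frequent there in replicate 2 and replicate 3. The counts in both were small. The strongest overlapping replicate region was counted, which can belong to a stronger neighbour. In the replicates' own lists, 2 weak coding regions of replicate 2 and 48 of replicate 3 ranked within the top 3265. Medians of GC content differed little by presence, at 56.7% for members in both, 55.7% for those in replicate 2 alone or replicate 3 alone, and 55.2% for those in neither. The summit was in the first or only coding exon for 36.2% of members in both and 26.8% of members in neither.

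The 8 members with the lowest summed ranks in the replicates were in SppL, kraken, slmo, Datp, Det, Adss, CG34130 and krz, and all had the summit in the first or only coding exon. The coding sequences of slmo and CG34130 had a single exon. The CG34130 summit lay at 96.4% of its CDS, and the slmo summit was also a 3′ UTR base of another transcript. For SppL, a gene of the signal peptide peptidase family, the signal was 42.3 in the pool, 57.0 in replicate 2 and 39.9 in replicate 3. For Det it was 23.8 in the pool, close to the lowest value of the list, with 47.7 in replicate 2 and 40.0 in replicate 3. In these regions and in kraken, slmo and CG34130, both replicate regions also overlapped a stronger pooled region beside the member, so the replicate values need not belong to the coding summit. In Datp, Adss and krz they overlapped none. The region in krz, the gene of the non-visual arrestin Kurtz, had 66.3 in the pool, 42.4 in replicate 2 and 40.2 in replicate 3. That of Datp had 71.1 in the pool, 55.8 in replicate 2 and 34.5 in replicate 3.

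Each replicate's own list gave a similar set in size. With the same rule, replicate 2 had 5801 weak coding regions (22.3% of its weak regions) and replicate 3 had 6532 (25.1%). Of those of replicate 2, 42.8% overlapped a region of replicate 3, against 49.9% of its weak regions elsewhere. Of those of replicate 3, 39.8% overlapped a region of replicate 2, against 51.4% elsewhere. The regions of replicate 2 cover 10.1% of all coding bases and those of replicate 3 cover 11.5%. These are shares of bases, while the overlaps count whole intervals, so they do not give the overlap expected from position alone. That expected overlap was not computed.

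GC content set the members apart from coding sequence at large as well as from the other regions. Measured over 201 bp centred on the summit, the median was 56.2% (quartiles 51.2% and 60.2%). It was 52.2% (47.3% and 56.7%) with every one of the 22.8 Mb of coding bases taken as a window centre, 41.3% in weak regions elsewhere and 36.3% in IDR peaks. Above the median of coding sequence lay 70.4% of the members. The number of members per Mb of coding sequence was 57.4 in windows of 30% to 35% GC, 129 at 40% to 45%, 223 at 50% to 55%, 582 at 60% to 65% and 929 at 65% to 70%. Above 70% it was 1425 (1074 to 1855), from 55 members. Outside coding sequence the rate of weak regions was 170 per Mb at 30% to 35% GC and 263 per Mb at 60% to 65%. IDR peaks were counted per Mb of all sequence, coding or not, and ran the other way. They had 53.3 per Mb at 30% to 35% and 3.38 per Mb at 60% to 65%. Coding bases, where few IDR summits lay, were 2.08% of the first class and 80.3% of the second. The IDR rates are thus not on the same base as the 2 rates before them.

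The same gradient stood in each replicate's own list. In replicate 2 the weak coding regions per Mb were 70.4 at 30% to 35% GC and 801 at 65% to 70%. In replicate 3 they were 93.9 at 30% to 35% and 832 at 65% to 70%. Below 50% GC the coding share was under that of the bases, and above 55% it was over it: at 35% to 40% GC, 2.79% of weak regions were coding and 4.77% of bases were, while at 60% to 65% the shares were 90.0% and 80.3%.

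**Figure D3:**
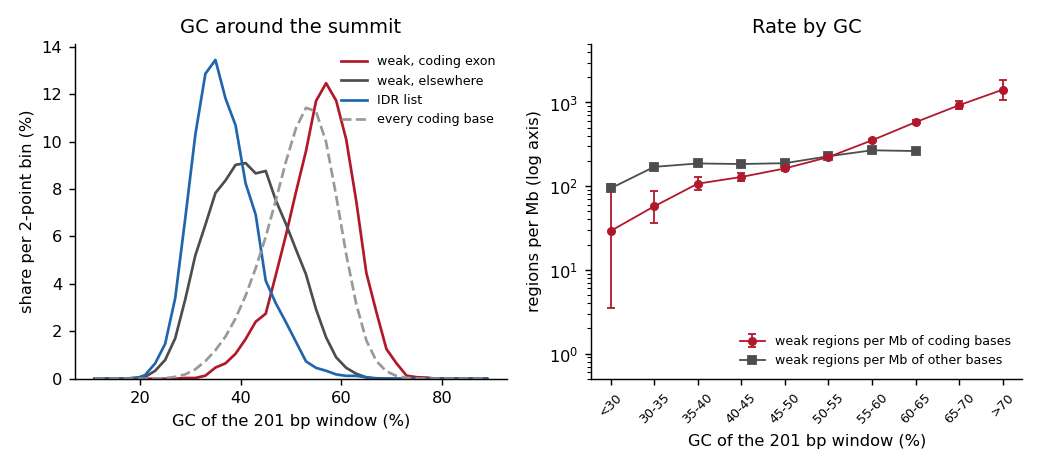
Left, distribution of GC content (%) in 201 bp windows around the summits of weak coding regions (red), weak regions elsewhere (grey) and IDR peaks (blue), and around every coding base (dashed). Right, weak regions per Mb of coding bases (red, exact 95% Poisson intervals) and of other bases (grey, shown for classes with 20 or more regions) by GC content on a log axis. The coding rate was 57.4 per Mb at 30-35% and 929 per Mb at 65-70%.

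All 3 codon positions shared the excess of G and C. In the coding bases of the members' windows, position 1 was 58.7% G or C, against 55.4% over all coding bases. Position 2 was 44.7%, against 41.5%, and position 3 was 68.3%, against 63.1%. The difference was 3.27 points at position 1, 3.22 at position 2 and 5.18 at the wobble position 3, where synonymous changes are most frequent. Set against its own gene, the median member window was 0.896 points above the GC content of all the gene's coding bases. Of the windows, 58.4% were above it. Only 65.6% of the members had a window wholly in coding sequence, while the gene value counts coding bases alone. How much of the excess the whole gene shares was therefore not measured. Within the members, GC content and pooled signal had a Spearman correlation of 0.0959 over the 6154 regions.

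First and last coding exons had more members for their length than internal exons. Each summit was assigned to the transcript with the longest CDS that covers it. First exons of a CDS with several exons held 19.0% of the members and 14.6% of coding bases, and last exons held 27.6% of the members and 23.9% of bases. Internal exons held 41.6% of the members and 50.4% of bases, and coding sequences of a single exon held 11.8% and 11.1%. In rates, first exons had 351 members per Mb, last exons 312, single exons 286 and internal exons 222. Along the CDS from start to stop codon, the initial 10% had 346 members per Mb, the stretch from 60% to 70% had 239 and the final 10% had 257. Farther than 500 bp from any TSS the initial 10% had 381 per Mb and the stretch from 60% to 70% had 233.

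Members were sparse far from the nearest TSS of a protein-coding transcript. Within 500 bp lay 20.1% of the members and 17.3% of coding bases. The rate was 243 per Mb within 100 bp, 325 at 101 to 250 bp, 356 at 501 to 1000 bp, 228 at 2001 to 5000 bp and 178 beyond 5000 bp. Because sequence near a TSS is poorer in G and C, each class was also set against the number expected if every coding base had the member rate of its own GC class, in steps of 2 points. The ratio of observed to expected was 1.41 (1.27 to 1.56) at 101 to 250 bp, 1.31 (1.24 to 1.37) at 501 to 1000 bp, 0.823 (0.778 to 0.870) at 2001 to 5000 bp and 0.623 (0.577 to 0.672) beyond 5000 bp. Signal and presence declined with distance, with a median signal of 35.0 within 100 bp and 29.2 beyond 5000 bp, and 58.0% of members in both replicates within 100 bp against 34.3% beyond 5000 bp.

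Long exons had few members for their length. Exons of 401 to 800 bp had 344 members per Mb, and exons longer than 3200 bp had 107. The shortest exons, of up to 100 bp, also had a low rate, at 199 per Mb. The 201 bp windows used for GC content reach beyond these short exons, and their median GC content was 42.3% over every coding base there. With GC content taken into account, the ratio of observed to expected was 1.49 (1.24 to 1.78) in exons of up to 100 bp, 1.16 (1.11 to 1.22) at 401 to 800 bp, 0.702 (0.649 to 0.758) at 1601 to 3200 bp and 0.442 (0.374 to 0.518) above 3200 bp. In first exons of a CDS with several exons the ratio was 1.22 (1.16 to 1.30), in last exons 1.11 (1.06 to 1.16) and in internal exons 0.868 (0.835 to 0.903). The whole deposited interval, 436 bp in every member, lay in coding sequence for 38.4% of the members, and at least 50% of it did for 93.1%. In 430 members (6.99%) the summit was also a UTR base of another transcript. A reproducible peak was near for few members: 95.2% had no IDR summit within 1 kb.

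The X chromosome had fewer members than the large autosomes. Its rate was 225 per Mb of coding sequence (211 to 241), against 279 (272 to 287) on chromosomes 2 and 3 together, although coding sequence on the X was the richer in G and C (median 54.7% against 51.7%). Taking GC content into account, the ratio of observed to expected was 0.699 (0.654 to 0.746) on the X and 1.07 (1.04 to 1.10) on chromosomes 2 and 3. The replicates' own lists gave 0.657 in replicate 2 and 0.709 in replicate 3 on the X, against 1.08 in replicate 2 and 1.06 in replicate 3 on chromosomes 2 and 3. Weak regions elsewhere had 161 per Mb on the X and 182 per Mb on chromosomes 2 and 3. The embryos were of mixed sex, and the part of X copy number in this difference was not tested. The small chromosome 4, much of which is heterochromatic, had 64 members at 241 per Mb, with a ratio to the GC expectation of 2.08 (1.61 to 2.66) in coding sequence with a median GC content of 39.3%.

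**Figure D4:**
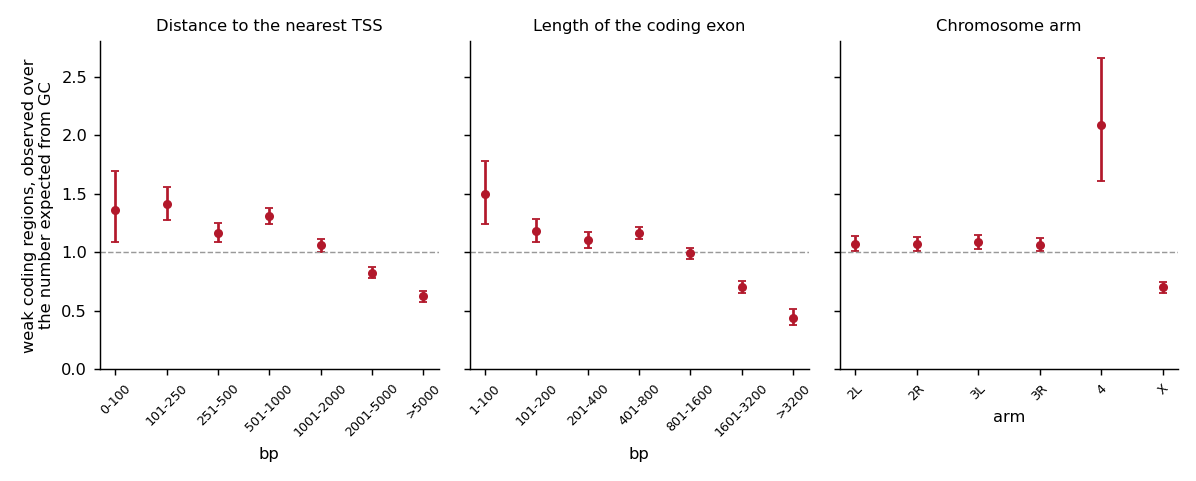
Number of weak coding regions divided by the number expected from the GC content of the coding bases, by distance to the nearest TSS (left, bp), length of the coding exon (middle, bp) and chromosome arm (right), with exact 95% Poisson intervals; the dashed line is 1. The ratio was 0.623 beyond 5000 bp from a TSS, 0.442 in exons over 3200 bp, 0.699 on the X and 2.08 on chromosome 4.

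The members lay in 4536 of 13945 protein-coding genes (32.5%). A single member was found in 3320 genes, 2 in 928, 3 in 210 and 4 or more in 78. Genes with a member had a longer coding sequence, with a median of 1.61 kb against 0.981 kb in genes without. The rate over all genes was 0.269 members per kb of coding sequence. It was 0.119 in genes whose coding sequence was under 45% GC and 0.506 in genes at 60% or more. It was 0.369 in genes with 0.5 to 1 kb of coding sequence and 0.113 in genes with over 8 kb.

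The largest number, 8 members, was in gukh on 3R, whose product binds the synaptic scaffold Discs large. Their pooled signals ranged from 24.9 to 42.0, and they were spread over 36.3 kb, from coding exon 1 to the last. All 8 had a region in replicate 3 and 6 had a region in replicate 2. A pair of neighbours in the first exon and another in the last exon of another transcript shared their replicate regions, so that these are not independent detections. The gene's coding sequence was 59.0% GC, and the members' median was 62.2%. siz, which encodes an exchange factor for Arf GTPases, had 7 members with pooled signals between 24.2 and 44.4. Of these, 6 had a region in replicate 2, 5 in replicate 3 and 4 in both, and those 4 were pairs of neighbours that shared their replicate regions.

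Genes with 6 members were lola, osa, RhoGEF3, mura and pum. lola makes many isoforms of a zinc finger protein by splicing a common BTB part to alternative last exons, and 5 of its 6 members were in the last coding exon of their transcript. Its strongest had 66.8 in the pool, 44.6 in replicate 2 and 19.4 in replicate 3. osa encodes a subunit of the Brahma chromatin remodelling complex. All 6 of its members had a region in replicate 2, with signals from 16.1 to 26.4, and 3 had one in replicate 3, with signals from 13.8 to 21.8. pum encodes the translational repressor Pumilio, and its 6 members were spread over 161 kb. Only 1 of them had a region in both replicates, 5 had one in replicate 3 and 2 in replicate 2. Its strongest members had windows of 70.6% and 70.1% GC. Among the 6 members of mura, which encodes a RING finger protein, 1 was in both replicates. RhoGEF3 had 5 members with a region in replicate 2 and 3 with a region in replicate 3.

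Of the genes with 5 members, Eip75B, btsz, milt, CG42671 and CG7518 had the highest summed signal. In Eip75B, the gene of the ecdysone-induced nuclear receptor E75, pooled signals ranged from 27.9 to 70.3. The strongest lay at codon 13 of a first coding exon and had 41.5 in replicate 2 and 30.9 in replicate 3. In btsz, which encodes a synaptotagmin-like protein, all 5 members were in a single exon of 7035 bp and had pooled signals of 23.5, 67.2, 23.8, 51.2 and 23.8 from its 3′ end to its 5′ end. The members with 67.2 and 51.2 were in both replicates, those with 23.5 and 23.8 were in a single replicate or neither. In milt, the gene of Milton, which couples mitochondria to kinesin, 4 of 5 members were in both replicates, among them a pair of neighbours with the same replicate regions. In CG7518 none of the 5 was in both.

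The gene lists ranged widely in members per kb of coding sequence. They are described beside the rate of 0.269 over all genes and beside the number expected from the GC content of their own coding bases. They were not tested, some genes are in more than 1 list, and the intervals count members as independent, although neighbours can share a replicate region. Over all genes, 32.5% had a member. The highest rate was in cytosolic ribosomal proteins, at 0.691 per kb, with 33 members in 29 of 92 genes. That share of genes, 31.5%, was close to the 32.5% over all genes. The number of members was 1.98 times that from GC content (1.36 to 2.77). That expectation does not take gene length or distance to a TSS into account. The 92 genes had 47.8 kb of coding sequence in all. Over all genes the rate was 0.301 per kb with under 0.5 kb of coding sequence and 0.369 with 0.5 to 1 kb. RpL8 had 2 members, both found in both replicates, and RpL3 had 2, of which 1 was in both. Kinases and partners of the p38 and JNK pathways, the first of which phosphorylates Atf-2, had 19 members in 12 of 18 genes at 0.489 per kb, 1.63 times the number from GC content (0.982 to 2.55). Of these 19, 5 were in both replicates. The replicates' own lists held fewer coding summits in these genes, 13 in replicate 2 and 13 in replicate 3. GC content gave 11.7 for the pooled list. puc, which encodes a phosphatase of JNK, had 3 members, 1 of them in both replicates, and Ask1, an upstream kinase, had 3 with none in both.

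Homeotic and segmentation factors had 25 members in 19 of 26 genes, 0.624 per kb, and their coding sequence was 59.6% GC. The ratio to the GC expectation was 1.32 (0.851 to 1.94). slp2, a fork head gene of segmentation, had 2 members in both replicates, and en, the homeobox gene engrailed, had 2 of which 1 was in both. Heat shock proteins and chaperones had 16 members in 11 of 21 genes, with a ratio of 1.32 (0.755 to 2.15) and a median signal of 38.8. The 3 members of Hsp68 were in both replicates, and of the 3 in Gp93, 1 was. Tubulins and actins had 9 members (ratio 1.52, 0.695 to 2.89), among them 2 in alphaTub84D and 1 in Act5C. Glycolytic enzymes had 10 (1.42, 0.679 to 2.60), with 2 each in Pfk and Pgi, and elongation and initiation factors had 13 (1.20, 0.641 to 2.06), with 2 each in eEF1alpha1 and eIF5B. Cytochrome P450 enzymes had 34 (1.25, 0.863 to 1.74), with 2 each in Cyp6a20 and Cyp4d20.

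Adhesion, muscle, matrix and cytoskeletal genes had few members per kb, but many of these genes had at least 1. The share of genes with a member was 46.7% among cadherins and cell recognition proteins, 48.0% in the muscle list and 78.9% in the cytoskeletal list, against 32.5% over all genes. In the matrix list 11 of 22 genes had one. Many of these genes are long. Genes with over 8 kb of coding sequence had 0.113 members per kb, a rate that was not split by list. Cadherins and cell recognition proteins had 22 members in 14 of 30 genes at 0.107 per kb, 0.427 times the number from GC content (0.268 to 0.646). Fas3, the gene of the adhesion protein Fasciclin 3, had 5 of them and Cad89D had 3. The muscle contractile apparatus had 23 members at 0.100 per kb (ratio 0.441, 0.280 to 0.662). bt, the gene of the giant muscle protein projectin on chromosome 4, had 4, each with a region in replicate 3 and none in replicate 2, while the 3 in the myofilin gene Mf all had a region in replicate 2 and 1 had one in replicate 3. Basement membrane and apical matrix had 17 (0.462, 0.269 to 0.740), with 3 each in the laminin gene LanB1 and the collagen gene Mp. Cytoskeletal giants and motors had 29 (0.620, 0.415 to 0.890), with 5 in btsz and 3 in zip, the gene of nonmuscle myosin heavy chain. Odorant, gustatory and ionotropic receptors had 23 members in 20 of 179 genes, or 11.2% (0.498, 0.316 to 0.748), with 2 each in Ir93a and Ir21a.

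Notch pathway genes had 15 members (ratio 0.811, 0.454 to 1.34), with 4 in nej, the gene of the acetyltransferase CBP, and 2 in E(spl)mgamma-HLH. Polycomb and Trithorax group genes had 27 (0.775, 0.511 to 1.13), with 6 in osa and 3 in Su(z)2. Histone lysine and chromatin enzymes had 25 (0.935, 0.605 to 1.38), with 3 in the demethylase gene Utx beside those of nej. Voltage-gated ion channels had 17 (0.703, 0.409 to 1.13), with 3 each in the potassium channel genes Shal and Shab. Cuticular proteins of the Cpr family had 10 (0.575, 0.276 to 1.06), including Cpr51A and Cpr64Ad. The replicates differed here. All 10 had a region in replicate 3 and 4 had one in replicate 2. The own list of replicate 2 held 5 coding summits in these genes and that of replicate 3 held 22, where GC content gave 17.4 for the pooled list. The 111 replication-dependent histone genes, which lie in near-identical tandem copies, had no coding summit in the pooled list or in either replicate list, where GC content gave 9.71. Whether reads from repeated copies were kept by the authors' mapping is not given in the sources used here.

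**Figure D5:**
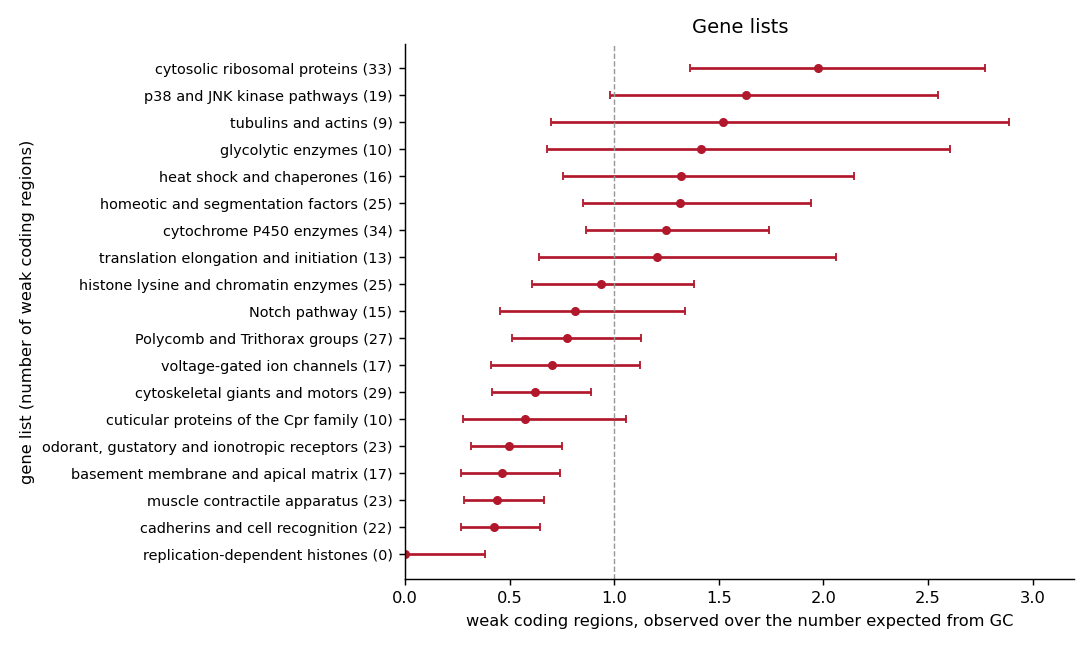
Number of weak coding regions in each of 19 gene lists divided by the number expected from the GC content of the list's coding bases, with exact 95% Poisson intervals; the number of regions is in brackets and the dashed line is 1. Cytosolic ribosomal proteins stood at 1.98, and muscle, cadherin and matrix genes between 0.427 and 0.462.

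Motif letters around the summits were closer in frequency to coding sequence at large than to the reproducible peaks. All motifs were searched on both strands of the 201 bp windows, and a match is a description of letters. The full CRE (TGACGTCA) was in 10 members (0.162%), against 0.414% of weak regions elsewhere, 0.490% of IDR peaks and 0.118% of the windows centred on every coding base. The short CRE core (TGACG), which each full CRE also contains, was in 25.7% of members, against 16.7% of weak regions elsewhere, 13.5% of IDR peaks and 23.9% of all coding windows. The AP-1 site (TGANTCA) was in 2.32% of members, 4.80% of weak regions elsewhere, 5.02% of IDR peaks and 3.03% of coding windows, and the PAR-type bZIP site (TTACGTAA) was in 0.0650% of members, 0.242% of weak regions elsewhere, 0.490% of IDR peaks and 0.102% of coding windows. Of the core promoter motifs, the DRE (TATCGATA) was in 0.179% of members, 1.73% of weak regions elsewhere, 3.74% of IDR peaks and 0.196% of coding windows. The M1BP motif (GGTCACACT) was in 8 members (0.130%), 1.02% of weak regions elsewhere, 1.32% of IDR peaks and 0.106% of coding windows.

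The full CRE, its short core, the M1BP motif and the motifs that follow, apart from GAGAG, were more frequent in the members than in coding windows at large, the CRE and M1BP counts being small. A triplet repeat (CAGCAGCAG), which often encodes glutamines, was in 443 members (7.20%), against 1.78% of weak regions elsewhere, 0.582% of IDR peaks and 4.67% of coding windows. The Zelda motif (CAGGTAG), the site of a factor that opens early embryonic enhancers, was in 2.57% of members, 1.01% of weak regions elsewhere, 0.735% of IDR peaks and 1.92% of coding windows. The E-box (CACGTG) was in 3.44% of members and 2.99% of coding windows, and GAGAG was in 22.2% of members and 22.7% of coding windows.

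The 17 IDR peaks with a coding summit show what lay beyond the limit of the members. The strongest was in otp, the homeobox gene orthopedia, with 608 in the pool, 449 in replicate 2 and 162 in replicate 3. klar followed with 265 in the pool, 172 in replicate 2 and 94.5 in replicate 3. At the other end, Creld had 84.7 in the pool and 33.9 in replicate 3.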

How the data were processed

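ChIP-seq peak lists of 2 biological replicates on build dm6 were used. Per the readme texts that came with the samples, the authors called each replicate's list from its own alignments with a control, called the pooled list likewise from both, and derived the IDR list from those. Signal and −log10 q-value are deposited per region. Aligner, caller, their versions, depth and the IDR cutoff: not given in the sources used here. Lists on dm3 were left out.

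Summits were placed on Ensembl release 115 gene models and the Release 6 sequence with Python 3.11.15, numpy 2.4.6, pandas 2.3.3 and scipy 1.17.1; figures used matplotlib 3.10.9. A base was coding if any transcript of a protein-coding gene had it in its CDS. Every coding base served as window centre for the reference values, so nothing was placed at random. Intervals on shares are exact binomial (Clopper-Pearson) and on rates exact Poisson, at 95%. Regions are not replicates, and no test was made. Overlap and coding assignment were checked on simulated data.

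The members and gene lists were chosen with earlier results of these data known. Genes were named by rule: the 12 strongest members, the 12 genes with most members, the 8 members with the lowest summed replicate ranks and, per list, the 2 genes with most members. Alternatives varied the definition of a coding summit, the overlaps, windows, distances and replicates.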

Additional observations from a re-analysis of the deposited data

How the results depend on the processing

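Of 85 alternative values, 52 stayed within 1 SD between the replicates' own lists, the counting interval or, for counts, 1.5 times, and 33 moved. The tally is a description, because some outcomes were fixed in advance. All 6154 intervals are distinct, so keeping 1 row per interval changed nothing. The stronger 50% must hold fewer regions of higher signal. Shares and GC without a replicate were judged by the SD of those same values. First exons here include the only exon of a coding sequence. Requiring the whole interval in coding exons left 2364 regions (9.10% of weak regions) in 1961 genes, with a median GC of 57.7%, 32.5% in the first coding exon and 8.80% within 500 bp of a TSS. The stronger 50% of the members, 3077 regions (11.8%) in 2596 genes, had a median signal of 37.0 and GC of 56.7%, with 84.4% in replicate 2, 77.5% in replicate 3, 62.2% in both, 34.1% in the first exon and 22.6% within 500 bp. Presence in replicate 2, replicate 3 and both was 65.1%, 58.9% and 32.0% with an overlap of 50% of both intervals, 57.1%, 49.2% and 21.7% with summits within 100 bp, and 33.5%, 36.1% and 12.1% against the 15000 strongest regions of each replicate. Median GC was 57.4% within 50 bp of the summit and 54.4% over the whole interval. Within 250 bp of a TSS lay 7.72% and within 1000 bp 44.8%. Leaving out each replicate in turn gave 5801 to 6532 regions (22.3% to 25.1%) in 4400 to 4718 genes, a median GC of 55.2% to 55.7%, 30.1% to 30.9% in the first exon and 19.8% to 21.1% within 500 bp; it can give no value for presence or pooled signal. The cause of these moves was not tested. No paired analysis was possible because there is 1 group. Read depth is unknown, so a region missing from a replicate list is not shown to be absent there.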
